A study of Mus musculus with 17 samples.

Results

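The genes described here are 38 genes of the cell division cycle, 16 of DNA replication and its onset (S phase) and 22 of mitosis. They were matched by symbol in a table of 23719 gene entries, and each of the 38 was present once. The question was whether their RNA differed between colons of mice that had been given pyridostigmine bromide (PB) and colons of control mice.

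The mice were C57BL/6 males aged 32 to 34 weeks. In the GWI group, a model of Gulf War illness, 8 mice received PB, which blocks the breakdown of acetylcholine, in their drinking water (2 mg/kg, 7 days). After a recovery of 21 days without PB, the colon was taken on day 30. The stated periods add up to fewer days than that time point. The control group held 9 mice given water. Poly(A) RNA of whole colon was sequenced, and libraries held 16293537 to 20741212 counts. The model rests on male mice of a single strain and on whole tissue in which all cell types are mixed.

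In the colon, dividing cells sit mainly in the lower part of the crypts, where stem cells and their transit-amplifying daughters renew the epithelium. Before S phase, the Mcm helicase is loaded on DNA, and genes for replication are switched on largely by E2F factors. Genes for mitosis are switched on later, when DNA has been copied, and their products build the spindle, watch over chromosome attachment and trigger the separation of chromosomes. RNA levels of both groups are widely used as a sign of dividing cells in a tissue. In whole tissue, fewer dividing cells and less RNA per dividing cell cannot be told apart.

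Several libraries stood apart from the rest. Control 1 had the lowest level of all 17 mice in 27 of the 38 genes, among them 22 of the 22 mitosis genes. Control 9 had the highest level in 13 genes and the lowest in 6, GWI 1 had the highest in 11 and Control 8 in 8. In Control 9 the most abundant genes took an unusual share of the library, with 23.1% of counts in the top 10 genes. Control 1, at -72.0, and Control 9, at 58.2, were also at the ends of the first principal component over all genes tested. Controls 6 and 7 had the highest counts of the small-intestine genes Fabp6 and Lyz1, and Control 1 and GWI 5 the lowest of the ileal bile acid transporter Slc10a2. Values without these mice are given with the results, and these sets of left-out mice were chosen after seeing the data.

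Of the 38 genes, 38 passed the filter on low counts, with 39 to 5379 counts per gene and mouse. With edgeR's quasi-likelihood test, 0 rose and 2 fell in GWI colons at an adjusted p under 0.05, against 13.4% of all 14146 genes tested that rose and 13.5% that fell. Counting both directions, the share was 5.26% of the cell cycle genes and 26.8% of all genes. At an unadjusted p under 0.05, 0 of the 38 were higher and 5 lower, while 41.4% of all genes passed that threshold and 22.1% passed it and were lower. DESeq2 called 0 higher and 2 lower, and limma-voom 0 higher and 1 lower. Without Control 6 and 7, 1 gene was called lower, Birc5, and without Control 1 and GWI 5, 4 were, Birc5, Tyms, Ube2c and Nusap1. Those fits called 19.6% and 34.9% of all genes. The groups overlapped in each of the 38 genes, while 2.35% of all genes tested had no overlap. The median log2 fold change was -0.14 over the 38 genes and -0.06 over all genes tested. With upper-quartile factors these medians were -0.24 and -0.15. The median over the 38 was -0.31 with the muscle minus epithelium score as a covariate, -0.07 with the small-intestine score, -0.23 without Control 1 and 9, and -0.02 without Control 7, 8 and 9. The fold change was above 0 in 10 of the 38 genes and in 44.8% of all genes.

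**Figure D1:**
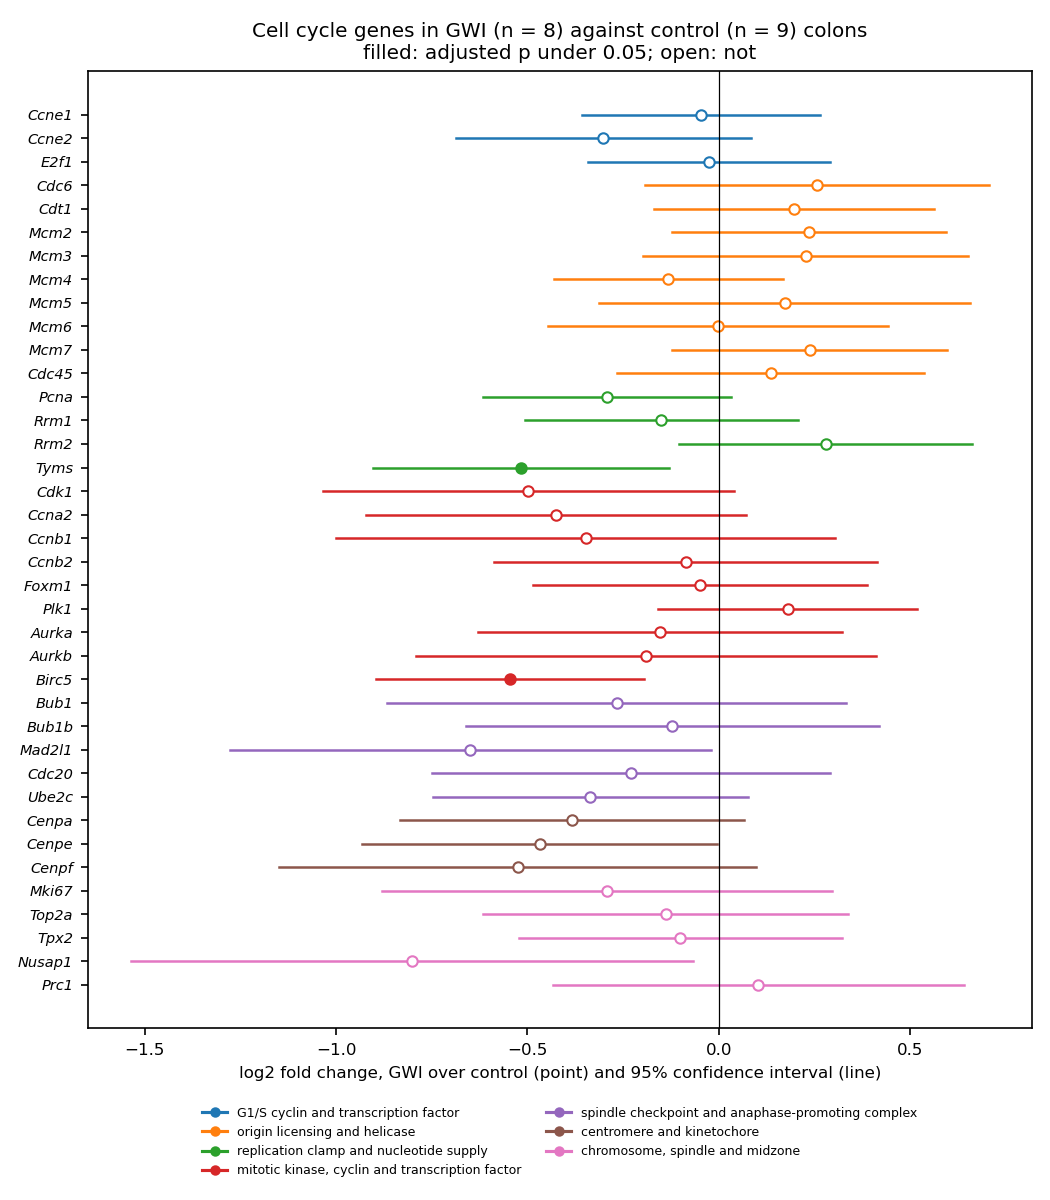
Log2 fold change of each of the 38 genes in GWI (n = 8) over control (n = 9) colons, with its 95% confidence interval, coloured by role. Filled points, Birc5 and Tyms, passed the adjusted p threshold; the open points did not.

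Birc5, which encodes survivin, a subunit of the complex that guides chromosome attachment and cell cleavage, had the smallest p of the 38. Its level was 12.1, 25.4 and 34.3 CPM (counts scaled to the size of the library; lowest, median and highest) in control colons and 13.7, 17.8 and 23.0 in GWI colons. Birc5 fell by 0.54 on the log2 scale (95% interval -0.90 to -0.19, SE 0.17, adjusted p = 0.0236, edgeR). All 8 GWI mice were below the control median, but Control 1 was lower than every GWI mouse. Without GWI 7 the adjusted p was 0.0517, over a range of 0.00130 to 0.0517 across the 17 fits that each left out a mouse. Over 15 other alternatives the adjusted p lay between 0.00117 and 0.107, and 11 kept the call. Its log2 fold change stayed between -0.66 and -0.48 in all 15, so the size of the difference changed little where the call was lost, as with either marker score as a covariate and without Control 7, 8 and 9.

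Tyms, the enzyme that makes thymidylate for DNA synthesis, was the other gene called. Its level was 11.7, 19.7 and 35.0 CPM in control colons and 12.3, 14.7 and 20.8 in GWI colons, so the groups overlapped over the whole GWI range. Tyms fell by 0.52 on the log2 scale (95% interval -0.90 to -0.13, SE 0.18, adjusted p = 0.0458, edgeR). Of 8 GWI mice, 7 were below the control median. The call was near the threshold: it held in 6 of the 17 fits that left out a mouse, with adjusted p between 0.00955 and 0.0890, and in 9 of 15 other alternatives, with adjusted p between 0.0120 and 0.217. The log2 fold change of Tyms over those 15 lay between -0.86 and -0.24.

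Genes of the S phase were split in direction. Of 16, 8 had a fold change above 0 and 1 was called. The median of 0.07 turned to -0.03 with upper-quartile factors and to -0.04 without Control 1 and 9, and was 0.0015 without GWI 1. It was 0.17 with the small-intestine score and 0.16 without Control 8. With the muscle minus epithelium score, and without Control 7, 8 and 9, it was 0.12. Summed over the 16 genes, the level was 290.5, 418 and 591 CPM (lowest, median and highest) in control colons and 311, 403 and 573 in GWI colons. The groups overlapped almost fully.

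The genes of origin licensing and the replicative helicase leaned above 0. They are Cdc6 and Cdt1, which load the helicase, Mcm2 to Mcm7, which form it, and Cdc45, which joins it when the origin fires. Of these 9 genes, 7 had a fold change above 0, with a median of 0.20, and 0 were called higher or lower by edgeR. Mcm2 ranged over 13.8, 26.8 and 38.3 CPM in control colons and 22.01, 29.7 and 42.0 in GWI colons, a log2 difference of 0.24 (95% interval -0.12 to 0.60, adjusted p = 0.303). Mcm7 had a log2 difference of 0.24 and Mcm3 of 0.23. Without GWI 1 the differences of Mcm2 and Mcm7 were 0.15 and 0.13, and without Control 9 that of Mcm3 was 0.15. Leaving out Control 3 gave 0.33 for Mcm2, 0.32 for Mcm7 and 0.34 for Mcm3. For Mcm2, 1 of 8 GWI mice was above every control. The median of the 9 genes stayed above 0 with each other scaling, and was 0.10 with upper-quartile factors and 0.06 without Control 1 and 9. It was 0.12 without GWI 1 and with offsets for GC content and length, and 0.29 without Control 3.

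The genes for starting S phase and for nucleotide supply differed among themselves. Ccne1 and Ccne2, cyclins that drive the entry into S phase, had log2 differences of -0.05 and -0.30, and E2f1, a factor that switches on replication genes, of -0.03. That of Ccne2 was -0.13 without Control 9, and lay between -0.70 and 0.03 over 15 alternatives. Ccne2 was called lower with the muscle minus epithelium score only. Pcna, the sliding clamp of DNA polymerases, had the highest level per kilobase of exon of the 38 genes, 51.8 CPM per kilobase in control and 42.3 in GWI colons. Its log2 difference was -0.29 (95% interval -0.62 to 0.03, adjusted p = 0.160). It was -0.19 without Control 9, and lay between -0.64 and -0.09 over 15 alternatives. Pcna was called lower without Control 1 and with the muscle minus epithelium score, fits that called 34.2% and 24.3% of all genes. Rrm1 and Rrm2, the subunits of ribonucleotide reductase, had differences of opposite sign, -0.15 and 0.28. Neither passed the test.

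The mitosis genes leaned below 0. Of 22, 20 had a fold change below 0, with a median of -0.28, and 1 was called, Birc5. Summed over the 22 genes, the level was 343, 730 and 1293 CPM in control colons and 475, 656 and 1143 in GWI colons. Of the 8 GWI mice, 5 were below the control median. Control 8 and Control 9 were the highest and Control 1 the lowest, so the control group spread wider than the GWI group.

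The size of this lean moved with the mice in the fit. Without GWI 1, 1 of the 22 was above 0 and the median was -0.41, the largest move made by leaving out a single mouse, and the median over the 38 was -0.29. Without Control 1, the mouse with the lowest sum, the median was -0.37, and 7 of the 22 mitosis genes and 2 of the 16 S phase genes were called lower. Calls over all genes rose as well, to 34.2% with 2295 lower, from 26.8% with 1903 lower. Without Control 1 and 9, 3 mitosis genes and 1 S phase gene were called lower, among them Ube2c and Nusap1 beside Birc5 and Tyms. In that fit 39.3% of all genes were called, with 2778 lower. Leaving out Control 7, 8 or 9 alone kept 20, 18 and 20 of the 22 genes below 0, with medians of -0.25, -0.17 and -0.21. Without all 3 of them, 9 of the 22 genes were above 0, the median was -0.07, 0 were called lower and Plk1 was called higher (adjusted p = 0.0346, beside a range of 0.0346 to 0.767 over 15 alternatives). In that fit 38.1% of all genes were called, with 2318 higher and 3105 lower. Control 7, 8 and 9 were left out for their trend with GC content, but they were also among the 4 controls with the highest sums, so leaving them out lowers the control level by construction. The count of genes above 0 was 2 of 22 with TMM, DESeq2 and upper-quartile factors and with library size alone.

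Among mitotic kinases, cyclins and their regulators, Cdk1, the kinase that drives entry into mitosis, was at 10.2, 22.7 and 50.4 CPM in control colons and 14.8, 18.7 and 30.3 in GWI colons. The log2 difference of Cdk1 was -0.50 (95% interval -1.04 to 0.04, adjusted p = 0.149). Ccna2, Ccnb1 and Ccnb2, cyclins that bind it, had log2 differences of -0.43, -0.35 and -0.09. That of Ccnb1 was -0.18 without Control 9 and -0.55 without GWI 1. That of Ccnb2 was -0.00 without Control 8 and -0.22 without GWI 1. Cdk1 and Ccna2 were called lower without Control 1, and Cdk1 with the muscle minus epithelium score as a covariate. Those fits called 34.2% and 24.3% of all genes. Foxm1, a factor for late cell cycle genes, was at -0.05, and the kinases Aurka and Aurkb at -0.15 and -0.19. Without GWI 1, Aurka and Aurkb were at -0.28 and -0.40. Aurka was at -0.06 without Control 3, and Aurkb at -0.05 without Control 8. Plk1, a kinase of spindle assembly, was 1 of 2 mitosis genes above 0, with 0.18. GWI 1 had the highest Plk1 level, 119 CPM, and without GWI 1 the log2 difference of Plk1 was 0.08.

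The spindle checkpoint holds back the separation of chromosomes until all are attached. Its genes Bub1, Bub1b and Mad2l1 had log2 differences of -0.27, -0.12 and -0.65. Mad2l1 ranged over 12.6, 30.7 and 94.4 CPM in control colons and 17.6, 25.7 and 38.1 in GWI colons, with an unadjusted p of 0.0438 and an adjusted p of 0.110 (edgeR). Control 9 had the highest Mad2l1 level. Without it the log2 difference of Mad2l1 was -0.39 and that of Bub1 -0.09. Over 15 alternatives that of Mad2l1 lay between -1.28 and -0.09, and its adjusted p between 0.0116 and 0.782. Cdc20 and Ube2c, which act with the anaphase-promoting complex that ends mitosis, were at -0.23 and -0.34.

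The centromere and kinetochore genes were all below 0 and none was called with all 17 mice and no covariate. With the muscle minus epithelium score as a covariate, Cenpa, Cenpe and Cenpf were called lower, beside 24.3% of all genes called. Cenpe was also called lower without Control 1, beside 34.2% of all genes called. Cenpa, the histone variant that marks the centromere, was at -0.38, and Cenpe and Cenpf, which act at the kinetochore, at -0.47 and -0.53. Among the chromosome, spindle and midzone genes, Nusap1, which binds spindle microtubules, had the widest difference of the 38 with all 17 mice in the fit. Nusap1 was at 7.14, 25.7 and 85.3 CPM in control colons and 12.5, 17.5 and 34.5 in GWI colons, a log2 difference of -0.80 (95% interval -1.54 to -0.07, adjusted p = 0.0928). Control 1 had the lowest and Control 9 the highest level. Without Control 9 the log2 difference of Nusap1 was -0.50, less wide than the -0.54 of Birc5, and without GWI 1 it was -0.97. It lay between -1.49 and -0.20 over 15 alternatives, with adjusted p between 0.0129 and 0.605. Mki67, the source of the Ki-67 antigen, was at 64.6, 133 and 325 CPM in control colons and 78.7, 123 and 240 in GWI colons, with a log2 difference of -0.29. Without Control 9 the differences of Mki67 and Cenpf were -0.11 and -0.32, and without GWI 1 they were -0.45 and -0.73. Top2a, which untangles DNA, was at -0.14, Tpx2 at -0.10, and Prc1, which bundles microtubules between the separating chromosomes, at 0.10.

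**Figure D2:**
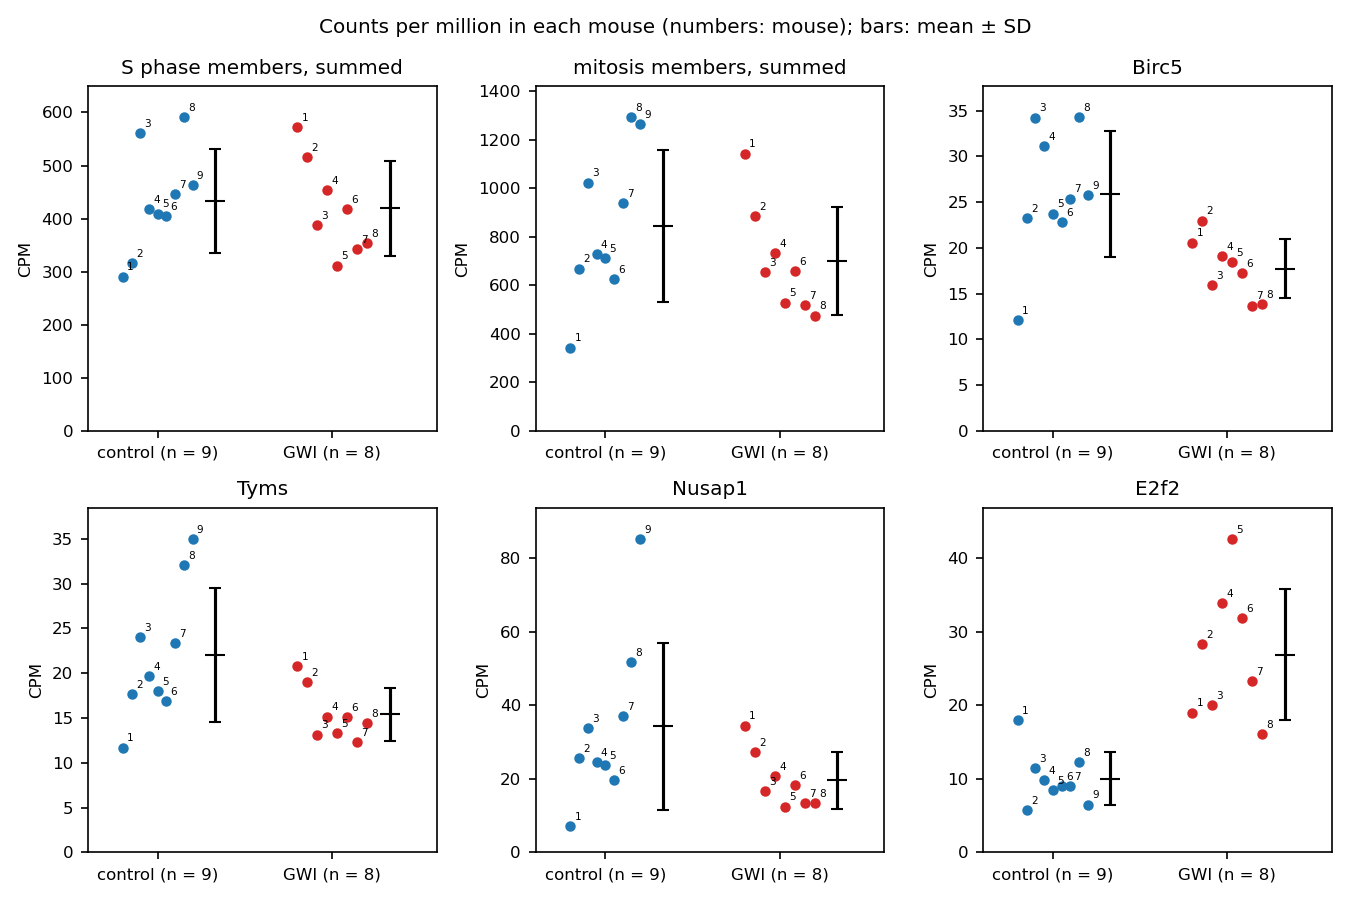
CPM in each mouse (points, numbered by mouse) for the summed S phase and mitosis genes, Birc5, Tyms, Nusap1 and E2f2, with mean ± SD (bars; control n = 9, GWI n = 8). Control 1 sits at the bottom of the mitosis sum, at 343, and the groups overlap in each panel.

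The GC content of the transcripts moved with these differences. Across the 38 genes, the Spearman correlation of the log2 fold change with the GC content of the longest transcript was 0.53, and across 14073 genes with a GC value it was 0.20. Genes are not independent replicates, so these are descriptions. In the 19 genes with lower GC content, 17 had a fold change below 0, with a median of -0.30. In the 19 with higher GC content, 11 did, with a median of -0.05. Of all genes below the median GC content of the 38, 3668 of 5484 were below 0, with a median of -0.16. Of those above it, 4103 of 8589 were, with a median of 0.02. The deviation of each mouse from the mean over mice also followed GC content, most in Control 9 (Spearman -0.61 over all genes, -0.77 over the 38). Control 7 and Control 8 were at -0.27 and -0.30 over all genes, and the GWI mice lay between -0.04 and 0.33. An alternative added after seeing the data took the trends on GC content and on the total exon length of the genes out of each library. With it, 2 genes fell, Birc5 and Tyms. Of 22 mitosis genes, 19 were below 0, with a median of -0.23.

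**Figure D3:**
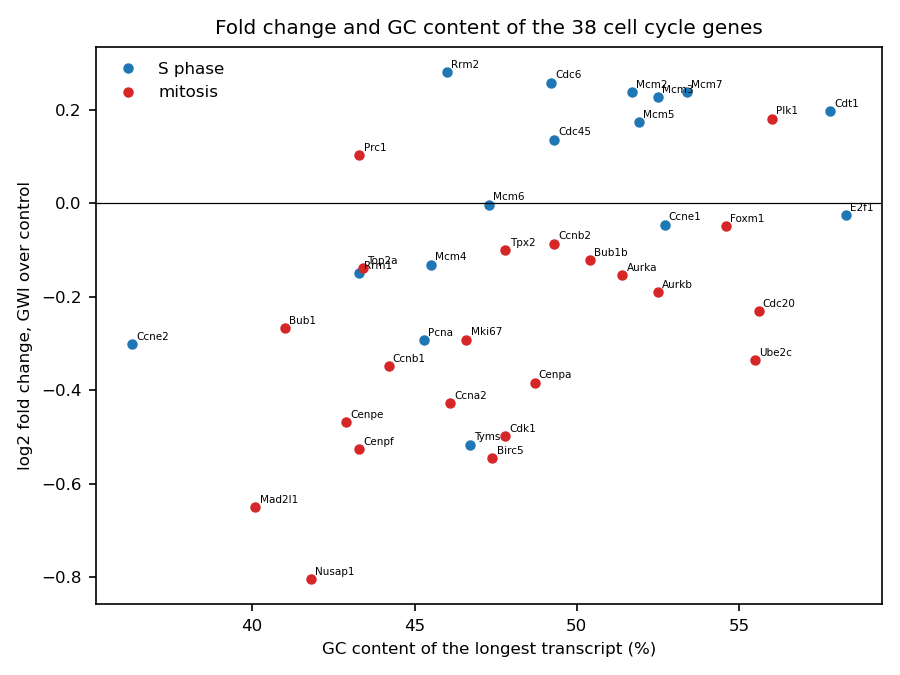
Log2 fold change (GWI over control) against the GC content of the longest transcript in percent for the 38 genes, S phase in blue and mitosis in red. The Spearman correlation across the 38 genes was 0.53.

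Longer lists of cell cycle genes, none of them among the 38, were read in the same fit. Of 51 other DNA replication genes, 1 rose and 8 fell, and the median log2 fold change was -0.08. Of 81 other mitosis genes, 0 rose and 8 fell by edgeR, with a median of -0.30 and 72 genes below 0. At an unadjusted p under 0.05, 0 of the 81 were higher and 20 lower, beside 22.1% of all genes that were lower at that threshold, and DESeq2 called 0 higher and 10 lower, limma-voom 0 and 7. The count of 8 was 23 without Control 1 and 25 with the muscle minus epithelium score. In these fits 34.2% and 24.3% of all genes were called, with 2295 and 2032 lower. The count was 18 without Control 1 and 9 (39.3% of all genes called) and 15 without Control 1 and GWI 5 (34.9%). It was 4 with the small-intestine score (22.5%) and 5 with the GC content and length offsets (27.9%). Without Control 7, 8 and 9 (38.1%) it was 5, with 1 gene higher. The count of 8 replication genes that fell was 3 without GWI 7, and 4 or 5 without Control 3, 7, 8 or 9 or GWI 3, 4, 5, 6 or 8. Of 41 genes of G1 entry, its inhibitors and brakes, 9 rose and 3 fell, with a median of 0.13. The shares called were 17.6%, 9.88% and 29.3%, beside 26.8% of all genes.

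Among the replication genes, Orc6 and Orc2, subunits of the origin recognition complex, fell by 0.54 and 0.61 on the log2 scale. Orc2 was at 17.2, 19.7 and 44.5 CPM in control colons and 11.9, 15.1 and 18.2 in GWI colons, and 7 of 8 GWI mice were below every control. Tipin, which protects stalled forks, fell by 0.50, and Pold3, a subunit of DNA polymerase delta, rose by 0.23. The call of Pold3 held in 9 of the 17 fits that left out a mouse and in 10 of 15 other alternatives, and was lost with upper-quartile factors and with library size alone. Among the mitosis genes, Smc4, a condensin subunit, fell by 0.66, from 68.1, 103 and 198 CPM in control colons to 58.2, 68.9 and 79.3 in GWI colons (adjusted p = 0.00817, edgeR). Zwint, a kinetochore protein, fell by 0.55 and Cks1b, which binds cyclin-dependent kinases, by 0.46.

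The gene with the widest difference in these lists was E2f2, an E2F factor that acts at the start of S phase. E2f2 was at 5.74, 9.05 and 17.9 CPM in control colons and 16.1, 25.8 and 42.6 in GWI colons. It rose by 1.42 on the log2 scale (95% interval 0.96 to 1.89, adjusted p = 0.000702, edgeR), and 7 of 8 GWI mice were above every control. The call held in 15 of 15 alternatives and in 17 of 17 fits that left out a mouse. E2f1, which was among the 38 genes, did not pass the test. Btg2, which slows proliferation, rose by 0.58, and Fzr1, an activator of the anaphase-promoting complex in G1, by 0.53. Ccnd2, a cyclin of G1, fell by 0.42, E2f6, an E2F factor that represses, by 0.35, and Fbxo5, an inhibitor of the anaphase-promoting complex, by 0.53. The call of Fbxo5 held in 9 of 17 fits that left out a mouse and in 9 of 15 other alternatives. With the muscle minus epithelium score as a covariate, Pold3, Cks1b, Zwint, Ccnd2, E2f6 and Fbxo5 were no longer called, and with the GC content and length offsets Tipin, Cks1b, Zwint and Fbxo5 were not. With the small-intestine score Tipin and Fbxo5 were not called, and without Control 7, 8 and 9 Fbxo5 was not. Over the 15 alternatives the log2 fold change of Tipin lay between -0.60 and -0.21, of Cks1b between -0.56 and -0.28, of Zwint between -0.70 and -0.32 and of Fbxo5 between -0.63 and -0.35. That of Ccnd2 lay between -0.53 and -0.19, of E2f6 between -0.44 and -0.24 and of Pold3 between 0.11 and 0.27.

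Markers of cell types in the samples were read beside the shares over all genes, of which 13.4% rose and 13.5% fell. Of 10 smooth muscle markers, 7 fell and 0 rose, with a median log2 fold change of -0.91. Their summed level was 3690, 11584 and 23923 CPM in control colons and 3658, 5142 and 11832 in GWI colons, with Myh11 the most abundant. Control 6 and Control 1 had the highest sums, and Control 7, 8 and 9 the lowest controls. Of 11 colon epithelium markers, 4 rose and 0 fell, with a median of 0.40. Their summed level was 26065, 31404 and 42165 CPM in control and 29784, 38046 and 47980 in GWI colons. Car1 was the most abundant, at a median of 12049 CPM in control and 11419 in GWI colons. The highest control sum was that of Control 9, which had the most Car1 counts of all mice, 420090. Control 9 had the fewest counts of several other markers, such as Krt8 and Krt19, though not of all. The part of this shift in tissue make-up in the cell cycle results was not tested. The muscle minus epithelium score lay between -0.76 and 0.47 in Control 1 to 7 and between -2.66 and -0.99 in GWI mice. Control 8 and 9, which had the highest mitosis sums, were at -1.59 and -1.89, the only controls within the GWI range. Score and group thus ran largely together, and a fit with both cannot separate them well. With this score as a covariate, 10 of the 38 genes were called lower. Of 22 mitosis genes, 0 were above 0, with a median of -0.54. In that fit 24.3% of all genes were called, with 2032 lower, and the median over all genes was 0.04. With the small-intestine score, 4 of the 22 were above 0 and their median was -0.14.

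Markers of stem cells and of immune cells were read beside the 38 genes. Of 8 intestinal stem cell markers, 0 were called by edgeR, with 2 at an unadjusted p under 0.05, a threshold that 41.4% of all genes passed. Their summed level was 183.5 to 304 CPM in control and 186 to 346.5 in GWI colons, with Lrig1 the most abundant. B cell markers summed to 0.930 to 13.4 CPM in control and 1.03 to 6.92 in GWI colons, and only Ms4a1 of 8 passed the filter, at a median of 0.986 and 0.854 CPM. T cell markers summed to 2.65 to 11.6 and 1.70 to 12.7 CPM, with Cd8a the most abundant. Macrophage markers summed to 31.4 to 81.1 and 30.4 to 48.4 CPM, led by C1qa, and 1 of 7 fell, Mrc1 (14.3%, beside 13.5% of all genes). Plasma cell markers summed to 218 to 558 and 333 to 496 CPM, led by Sdc1. Sdc1 had a median of 214 CPM in control and 310 in GWI colons, beside median sums of 315 and 391. The sums thus mostly reflect Sdc1. Of the 5 plasma cell markers, 3 passed the filter, with a median log2 fold change of -0.25: Sdc1 rose, and Jchain and Mzb1, at -0.25 and -0.47, were not called. Small intestine markers summed to 56.1 to 1413 and 54.9 to 580 CPM, with a median of 444 in control and 481.5 in GWI colons. Slc10a2 led them, at a median of 292 and 423.5 CPM, a log2 difference of 0.45 that was not called. Of 10, 5 passed the filter, and Fabp6 and Lyz1 fell in GWI colons, with Control 6 and 7 far above the other controls. Slc10a2 was instead far lower in Control 1 and GWI 5 than in the other mice. The sum and the small-intestine score thus join markers that differ in pattern across mice.

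The promoters of the 38 genes were searched for the letters of motifs known from cell cycle genes, in windows of RefSeq (GRCm38.p6) from 250 bases before to 50 after the start. Of the 38, 32 had a window. Both strands were searched for TTTCCCGC, TTTCGCGC, TTTGCCGC and TTTGGCGC (E2F), for TTTGAA and TTTAAA (CHR, an element of late cell cycle genes) and for CCAAT. E2F letters were in 5 of 14 S phase windows (35.7%) and 1 of 18 mitosis windows (5.6%), beside 2.3% of 27025 windows of all genes. CHR letters were in 35.7% and 83.3%, beside 27.9% of all, and CCAAT in 64.3% and 83.3%, beside 37.8%. A match is a description of the letters and not evidence of binding. The windows of Birc5 and Tyms, the genes called, and of Cdk1 and Mcm6, which hold several matches, are printed with each match in capitals. They were chosen after the matches were seen. Birc5 lies at chr11:117848987-117849286 on the plus strand, and Tyms at chr5:30073576-30073875, Cdk1 at chr10:69352863-69353162 and Mcm6 at chr1:128359656-128359955, all on the minus strand.
Birc5: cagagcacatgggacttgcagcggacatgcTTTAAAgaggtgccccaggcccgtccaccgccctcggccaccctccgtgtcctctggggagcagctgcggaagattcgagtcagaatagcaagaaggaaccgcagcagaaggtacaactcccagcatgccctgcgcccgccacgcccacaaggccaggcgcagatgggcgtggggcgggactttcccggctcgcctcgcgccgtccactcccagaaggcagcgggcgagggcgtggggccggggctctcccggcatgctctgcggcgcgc
Tyms: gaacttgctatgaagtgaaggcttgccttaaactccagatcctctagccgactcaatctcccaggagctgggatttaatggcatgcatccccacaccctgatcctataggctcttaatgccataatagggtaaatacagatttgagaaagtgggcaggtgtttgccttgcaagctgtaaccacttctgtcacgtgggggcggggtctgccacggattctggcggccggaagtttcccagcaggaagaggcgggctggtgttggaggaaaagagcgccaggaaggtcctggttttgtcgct
Cdk1: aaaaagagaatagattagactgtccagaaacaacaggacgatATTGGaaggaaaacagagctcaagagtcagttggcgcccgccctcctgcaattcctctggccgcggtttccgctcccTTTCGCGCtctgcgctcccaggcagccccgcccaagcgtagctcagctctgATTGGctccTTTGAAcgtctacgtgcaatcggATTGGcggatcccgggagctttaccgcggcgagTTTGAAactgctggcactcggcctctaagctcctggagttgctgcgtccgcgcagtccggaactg
Mcm6: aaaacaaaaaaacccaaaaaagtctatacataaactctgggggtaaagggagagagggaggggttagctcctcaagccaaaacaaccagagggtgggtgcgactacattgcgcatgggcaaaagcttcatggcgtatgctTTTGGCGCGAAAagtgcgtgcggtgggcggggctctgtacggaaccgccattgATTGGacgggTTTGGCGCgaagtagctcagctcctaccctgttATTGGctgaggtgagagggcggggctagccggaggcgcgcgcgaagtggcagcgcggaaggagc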

How the data were processed

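RNA of colons from 9 control and 8 GWI mice was sequenced by the authors as poly(A)-selected paired-end libraries. Per the labels and the methods of the study, reads were trimmed with Trimmomatic 0.36, mapped with STAR 2.5.2b to GRCm38 and counted with featureCounts; the authors deposited raw counts per gene, without normalization. The annotation release and the strand setting of the counting are not given in the sources used here, so reads of genes that overlap on opposite strands (among them Ccna2, Ccne2, Cdc20, Cdc45, Mcm7, Nusap1, Plk1, Prc1 and Ube2c, and of the other lists Orc2, Orc6, Fzr1 and Ccnd2) cannot be told apart. All 17 columns matched a sample and 0 columns were left over. The closest pair of libraries still differed by over 3 Poisson SD in 15.7% of genes.

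Genes were kept by filterByExpr. The quasi-likelihood test of edgeR 4.0.16 (R 4.3.3; TMM factors, robust glmQLFit, then glmQLFTest) had the group as its only term. The Benjamini-Hochberg adjustment ran over 14146 genes, and a gene was called at an adjusted p under 0.05. Levels are CPM on TMM-scaled libraries; principal components used log2 CPM with a prior count of 2. Lengths, GC content and overlaps come from GENCODE M21. Where a gene had more than 1 promoter window, the one with the lowest coordinate was used. Alternatives were DESeq2 1.42.0 (Wald test and size factors), limma-voom (limma 3.58.1), upper-quartile factors, library size alone, no filter, a minimum of 10 counts per gene in all mice, a replicate block, marker scores as covariates, an adjusted p under 0.01 and leaving out each mouse; offsets for GC content and length (mgcv 1.9.3) and groups of left-out mice were added after seeing the data. The members and lists were chosen with earlier results of these data known. Named were all 38 genes and, from each of the other cell cycle lists, the 3 genes called with the smallest p in each direction, and from each marker list described its most abundant gene (the result of 1 marker list is not reported here); other markers named were chosen after their values were seen. Sample names share first parts whose meaning is not given in the sources used here, and the mice were treated as independent.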

Additional observations from a re-analysis of the deposited data

Results flagged for a closer look

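A sample far from the others of its group, by Dixon's ratio of its gap to the range of the group, was found in 5 of 80 groups, taking each of the 38 genes and both sums in each condition. For independent, normally distributed values, chance gives about 1 in 20 groups. The groups here share the same mice, and the sums hold the same genes, so that rate is only a rough guide. Control 9 was high for Ccne2, at 19.1 CPM, with the next control at 12.0. GWI 1 was high for Plk1 at 119 CPM (next 87.7), for Aurkb at 22.2 CPM (next 13.8) and for Bub1b at 33.9 CPM (next 21.4). Control 1 was low for Ube2c, at 13.5 CPM, with the next control at 32.6. None of these genes was called with all 17 mice in the fit.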

How the results depend on the processing

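With all 17 mice, 0 of the 38 genes were called higher and 2 lower (S phase 1, mitosis 1), with 1 higher and 8 lower of the other replication genes, 0 and 8 of the other mitosis genes, 9 and 3 of the G1 genes, and 1889 and 1903 of all genes. DESeq2 size factors and at least 10 counts in every mouse moved none of these by over 1.5 times. Upper-quartile factors gave 0 replication genes higher and 1214 higher and 2992 lower of all genes, so the share of calls that were higher went from 49.8% to 28.9%. Library size alone gave 0 replication genes higher. Limma-voom gave 1 gene lower (S phase 0) and 5 replication genes lower. No filter gave 1 lower (S phase 0) and 0 replication genes higher. An adjusted p under 0.01 gave 0 lower (S phase 0, mitosis 0), 0 and 1 replication genes, 1 mitosis gene lower, 3 and 1 G1 genes, and 833 and 528 of all genes.

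With the small-intestine score as a covariate 0 were lower (S phase 0, mitosis 0), with 2 replication and 4 mitosis genes lower. With the muscle minus epithelium score 10 were lower (S phase 3, mitosis 7), with 0 replication genes higher, 25 mitosis genes lower and 5 and 1 G1 genes, beside 2032 of all genes lower. Chosen after seeing the data were the GC content and length offsets and the sets of 2 or 3 left-out mice. GC content and length offsets gave 3 and 5 replication genes and 5 mitosis genes lower. Without Control 6 and 7, 1 was lower (S phase 0), with 4 replication genes lower and 5 G1 genes higher. Without Control 1 and 9, 4 were lower (mitosis 3), with 18 mitosis genes and 6 G1 genes lower. Without Control 1 and GWI 5, 4 were lower (mitosis 3), with 2 replication genes higher and 15 mitosis genes lower. Without Control 7, 8 and 9, 1 was higher (mitosis 1) and 0 lower (S phase 0, mitosis 0), with 2 and 4 replication genes, 1 and 5 mitosis genes, and 3105 of all genes lower. The cause was not tested.

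With the replicate block, 0 of the 38 were lower (S phase 0, mitosis 0), with 0 and 1 replication genes, 1 mitosis gene lower and 826 of all genes lower. The numbers did not pair the mice: correlations of 8 pairs were -0.51 to 0.11, and 0 were highest with their own number.

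Leaving out each mouse gave 0 to 9 of the 38 lower (9 without Control 1, 0 without GWI 7), S phase 0 to 2, mitosis 0 to 7, replication genes 0 to 2 higher and 3 to 10 lower, other mitosis genes 6 to 23 lower, G1 genes 6 to 10 higher and 2 to 4 lower, all genes 1472 to 2523 higher and 1309 to 2295 lower, and a median of -0.29 to -0.05.

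Some fold changes of genes that were not called changed sign. Mcm6 was at 0.0008 with DESeq2, 0.027 with limma-voom, 0.0042 with no filter, 0.028 with the replicate block, 0.12 with the small-intestine score and 0.20 without Control 7, 8 and 9. With the block Bub1 was at 0.026. With the small-intestine score Ccnb2 was at 0.065 and Foxm1 at 0.040. With the muscle score E2f1 was at 0.11, Plk1 at -0.10 and Prc1 at -0.27. With GC content offsets Ccne2 was at 0.028 and Ccnb2 at 0.054. Without Control 7, 8 and 9, Ccnb1 was at 0.10, Ccnb2 at 0.036, Foxm1 at 0.11, Bub1 at 0.25, Bub1b at 0.038, Mki67 at 0.16 and Top2a at 0.10. Without a single mouse, E2f1 ranged over -0.075 to 0.033, Mcm6 over -0.12 to 0.12, Ccne1 over -0.11 to 0.028, Foxm1 over -0.18 to 0.093, Top2a over -0.29 to 0.0077 and Prc1 over -0.061 to 0.24.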
